A study of Mus musculus with 10 samples.

Results

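A Western diet without any added toxin was compared with a normal diet in mouse liver. The comparison takes 4 of the 10 libraries of the series, chosen by their labels: the pools of mice fed normal diet with oil for 12 and for 24 weeks, and the pools of mice fed Western diet with oil for 12 and for 24 weeks. Each pool held liver RNA of 4 mice, so a diet is represented by 2 pools that also differ in duration. Of 24062 genes in the table, 12648 reached a normalised read count of 1 in 2 or more of all 10 libraries and are described here.

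Oil is the vehicle of carbon tetrachloride (CCl4), a liver toxin given to the other mice of the study. The remaining liver pools were normal diet with CCl4 and Western diet with CCl4, at the same durations and again from 4 mice each. They enter here as a second, separate pair of diets. The last 2 libraries, tumours from mice on Western diet with CCl4 at 24 weeks, were not used in the comparison. The labels give no strain, sex, age, diet composition or time of day of collection.

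A Western diet, rich in fat, sugar and cholesterol, loads the liver with lipid. Hepatocytes take up, make, burn and export fatty acids, and they turn cholesterol into bile acids. When lipid persists, macrophages of the liver take on a lipid-handling programme and stellate cells lay down collagen, which is the fibrosis of steatohepatitis. Feeding also sets the liver clock, and growth hormone pulses set genes that differ between male and female liver.

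Recovered library totals ran from 23206229 to 30137802 reads, and the 4 oil pools held 24975517, 24082712, 25265767 and 27165428 reads (normal diet at 12 and 24 weeks, then Western diet at 12 and 24 weeks). Hepatocyte markers were high in every oil pool, with a summed level of 105323 to 142953 over 6 markers. Lep was at 0 and the adipocyte markers summed to at most 0.0887. Of the pancreatic markers only Cela1 was read, and Prss2, Pnlip and Cpa1 were at 0. In bulk tissue, fewer cells of a type and less RNA per cell cannot be told apart.

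In the oil pools 252 genes differed between the diets (1.99% of the genes tested). Of these, 183 were higher on Western diet (1.45%) and 69 lower (0.546%). Among them 112 rose and 53 fell by at least 2-fold (1.3% in both directions). The test was limma on log2(value + 1) across the 8 liver pools, with 1 mean for each combination of diet and treatment, a term for duration and Benjamini-Hochberg adjustment at 0.05. Fold changes below are differences on that scale with their standard errors, and they understate the change of low genes. At an unadjusted p under 0.05, 1366 genes were higher (10.8%) and 853 lower (6.74%).

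Because each pool merges its mice, the p-values say nothing of single animals. The term for duration takes out a 12-to-24-week difference common to all groups. The p-values therefore weigh how unlike that difference was among the 4 combinations of diet and treatment, CCl4 pools included. Without 1 of the 4 oil pools fewer genes passed: 105 and 34 without the normal-diet pool of 12 or 24 weeks, and 17 and 22 without the Western-diet pool of 12 or 24 weeks. In those fits the lone pool is assumed to vary like the other groups. Leaving out the pool of Western diet with CCl4 at 24 weeks gave 390. With no term for duration 121 passed (0.957%), and with the 4 oil pools fitted alone 1519 (12%). The genes that passed whichever of the 8 pools was left out were 10, namely Dbp, Cyp2a22 and Sulf2, which were higher, and Moxd1, Tff3, Elovl3, Pitx3, Enho, Scara5 and Cyp2c67, which were lower. The count tests edgeR and DESeq2, run on the recovered reads, called 261 (2.06%) and 570 (4.51%) genes, and 234 genes were called by both and by limma.

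All 252 genes changed in the same direction at 12 and at 24 weeks, against 68.3% of all genes tested. The sign at both durations bears on the same test that chose them, and so does a lack of overlap between the diets. Where such a lack is stated for called genes below, it describes their values and is no further support. Its share among all genes was not counted. Across the 12648 genes the 12-week and the 24-week change had a Pearson r of 0.62, a description over genes that share libraries. The median change of the 183 higher genes was 1.07 at 12 weeks and 1.04 at 24 weeks. That of the 69 lower genes was -1.41 and -1.49.

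**Figure D1:**
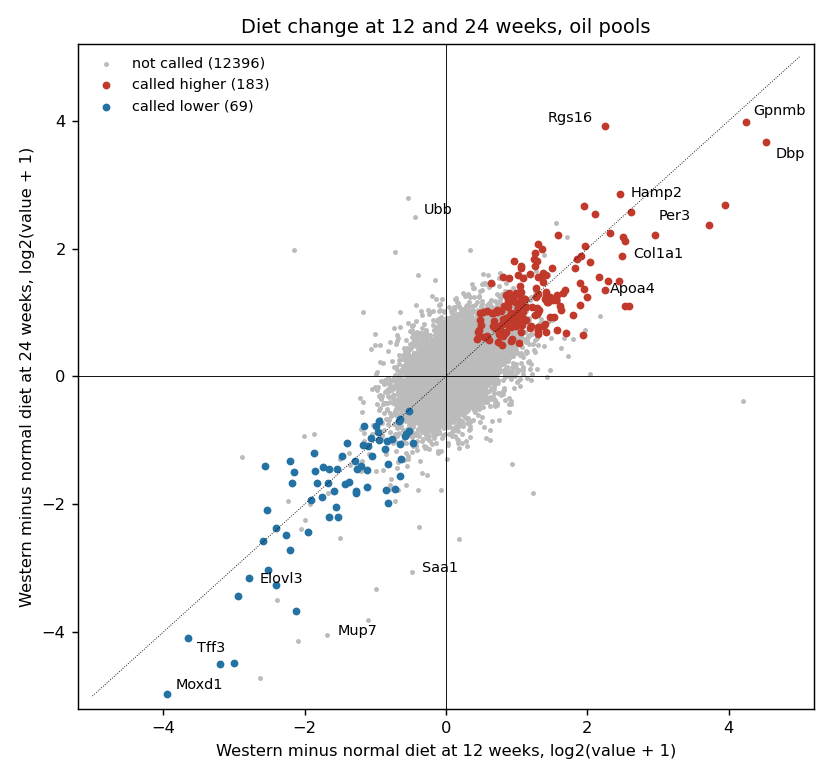
Each point is 1 of 12648 genes, with the Western-minus-normal difference of log2(value + 1) at 12 weeks on the x axis and at 24 weeks on the y axis, oil pools only. Red and blue points are the 183 genes called higher and the 69 called lower, and all 252 lie in the quadrants where both differences have 1 sign, while Ubb, not called, lies far from the dotted line of equal change.

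Genes of type I and type III collagen, which form the scar fibres of the liver, rose on Western diet. Of 20 listed collagen genes, 7 passed, all higher, and the median change of the list was 0.87 against 0.02 for all genes. At an unadjusted p under 0.05 by limma, 13 were higher and 1 lower, and DESeq2 called 11 higher and 1 lower. Col1a1, a chain of type I collagen (chromosome 11, 94936224 to 94953042 on the plus strand, GRCm38), had normalised read counts of 4.92 at 12 weeks and 5.90 at 24 weeks in mice fed normal diet, against 33.2 and 28.8 in mice fed Western diet. The 2 diets did not overlap, and the log2 change was 2.32 ± 0.27 (limma, adjusted p = 0.00599). Its partner chain Col1a2 read 11.4 and 8.33 against 52.5 and 53.1, a log2 change of 2.32 ± 0.27. Col3a1, type III collagen, read 23.5 and 24.2 against 99.2 and 85.9, a change of 1.91 ± 0.19 (limma, adjusted p = 0.0031). For these 3 genes both Western-diet pools were above both normal-diet pools. The chains Col6a1 and Col6a2, of a beaded-filament collagen, rose by 1.5 ± 0.21 and 1.38 ± 0.22. Col14a1, which binds to fibrils, rose by 1.09 ± 0.14, and Col5a1, which starts them, by 0.95 ± 0.19. Col6a3 (change 1.51) and the basement-membrane chain Col4a1 (change 1.09) did not pass, with limma adjusted p of 0.0542 and 0.0836. Col4a5, another basement-membrane chain, is not in the list and was called higher, with a change of 1.76 ± 0.28 (limma, adjusted p = 0.0185). Col27a1 was among the 2 listed collagens with a negative difference, reading 21.4 and 22 against 14 and 13.5 without passing (limma, adjusted p = 0.0755).

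Of 38 other matrix genes, 7 were higher and none lower by limma, with a median change of 0.67. At an unadjusted p under 0.05, 26 were higher and 1 lower, and DESeq2 called 16 higher. Lum, a proteoglycan on collagen fibrils, read 6.08 and 7.41 on normal diet against 25.6 and 30.1 on Western diet, a change of 1.90 ± 0.20. Mmp2, a gelatinase of mesenchymal cells, read 3.24 and 2.61 against 15.5 and 13.8 and rose by 2.0 ± 0.30. The Western-diet pools lay above the normal-diet pools for both. Tnc, a matrix protein of repair, rose by 1.68 ± 0.25, the microfibril gene Fbn1 by 1.31 ± 0.24, the laminin chain Lama2 by 1.31 ± 0.23, the collagen cross-linker Loxl2 by 1.17 ± 0.22 and Sparc by 0.99 ± 0.19. Timp1, an inhibitor of matrix proteases, stayed near the detection floor, at 0.0887 and 0.457 against 0.726 and 0.371, and Spp1, osteopontin, read 49.9 and 37.3 against 60.8 and 68.9. Neither passed.

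Of 24 stellate cell genes, 2 rose by limma and none fell, with 7 higher at an unadjusted p under 0.05. Pdgfrb, the receptor through which platelet-derived growth factor drives stellate cells, read 5.99 and 5.44 against 13.4 and 16.2 (change 1.23 ± 0.23). Reln, a secreted protein of quiescent and active stellate cells, read 33.1 and 28.9 against 55.4 and 60.6 (change 0.88 ± 0.12). Acta2, the smooth-muscle actin of myofibroblasts, read 2.0 and 2.29 against 2.95 and 1.52, so the diets overlapped. Summed over 5 stellate markers, the levels were 62.0 and 56.4 on normal diet against 102 and 107 on Western diet, and the part of more stellate cells in the collagen values was not tested.

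Genes of lipid-associated macrophages, the TREM2-positive cells that gather around dying fat-laden hepatocytes, held the highest share of called members among the lists with at least 5 tested. Of 23 tested, 10 were higher and none lower by limma, with a median change of 0.94. All 23 differences were above 0, as were all 20 in the endothelium list and all 9 in the class II list. Of 24 hepatocyte identity genes, 18 had a difference below 0. Gpnmb, a lysosomal glycoprotein of these cells (chromosome 6, 49036546 to 49070929 on the plus strand), read 0.799 and 0.823 on normal diet against 33.2 and 27.8 on Western diet. The diets did not overlap, and its change of 4.11 ± 0.37 was the greatest rise among the 252 genes (limma, adjusted p = 0.00163). Trem2, the lipid-sensing receptor, read 0.799 and 1.28 against 5.98 and 4.89 and rose by 1.66 ± 0.32 (limma, adjusted p = 0.0393). Mmp12, the macrophage elastase, read 0.399 and 0.640 against 5.98 and 6.75 and rose by 2.28 ± 0.31. Every Western-diet pool was above every normal-diet pool for these 3 genes. Cd63, a tetraspanin of lysosomes, rose by 1.81 ± 0.35 and Clec7a, a receptor for beta-glucan, by 1.84 ± 0.32. Lgals3, a galectin, rose by 1.42 ± 0.23, and Cd68, a pan-macrophage lysosomal marker, went from 6.65 and 9.61 to 15 and 16.2, a change of 0.88 ± 0.18. Capg, Ctss and Ms4a7 were the remaining called members. Lyz2, lysozyme, read 49.6 and 96.8 against 137 and 177 and missed the threshold (limma, adjusted p = 0.0548).

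Among 20 genes of resident Kupffer cells 2 were higher and none lower by limma, with a median change of 0.42. Csf1r, the receptor of the macrophage growth factor, read 39.3 and 44.7 against 77.4 and 89.9 (change 0.98 ± 0.17), and C1qb, a chain of complement C1q, rose by 0.72 ± 0.15. Clec4f, an exclusive Kupffer marker in mouse, read 69.4 and 90.8 against 88.4 and 91.0, and Timd4, which resident cells carry, read 5.32 and 7.96 against 4.57 and 4.78. Their diets overlapped or ran the other way. The 5 markers of lipid-associated macrophages summed to 34.6 and 35.6 on normal diet against 81.1 and 73.6 on Western diet. In this sum Cd9 was the greatest part on normal diet, at 31.5 and 31.25, and read 33.97 and 30.92 on Western diet. Its diets overlapped, and most of the rise in the sum came from Gpnmb. The 5 Kupffer markers summed to 176 and 261 against 280 and 331. Whether more macrophages account for either list was not tested.

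Few genes in the lists of other immune cells were called. The lists do not cover all immune genes, since 159 of the 252 called genes were in no list. Leukocyte genes outside these lists were also called higher, among them Itgal, Itgb2, Itga4, Selplg, Syk and Spi1. Such genes were not counted as a set. Ccl5, a chemokine that draws T cells, read 1.33 and 2.10 against 12.1 and 10.5 and rose by 2.19 ± 0.23 (limma, adjusted p = 0.00366). Its Western-diet oil pools were above all 6 other liver pools, which held for 10 of the 183 higher genes and 4.18% of all genes. The chemokine receptor Cxcr4 rose by 1.0 ± 0.19, and Nkg7, a granule protein of cytotoxic cells, read 0.532 and 0.457 against 1.84 and 3.23 (change 1.21 ± 0.23). Of 15 lymphocyte genes tested, 1 was higher and none lower by limma, and 4 of the 15 differences were below 0. Cd8a, of cytotoxic T cells, read 0.266 and 0.503 against 1.75 and 3.45 without passing (limma, adjusted p = 0.0550). Cd4, of helper T cells, read 2.88 and 3.75 against 1.58 and 0.927, the opposite direction, and did not pass (limma, adjusted p = 0.133). Antigen-presenting class II genes gave 0 calls among 9 by limma and by edgeR, 3 by DESeq2, and 6 higher at an unadjusted p under 0.05. Cd74, the invariant chain, read 89.2 and 105 against 136 and 189. Interferon-stimulated genes gave 0 calls among 30 by limma and edgeR, 4 by DESeq2, and 9 higher at an unadjusted p. Neutrophil markers S100a8, S100a9 and Retnlg summed to 2.35 and 2.74 against 2.39 and 4.15.

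**Figure D2:**
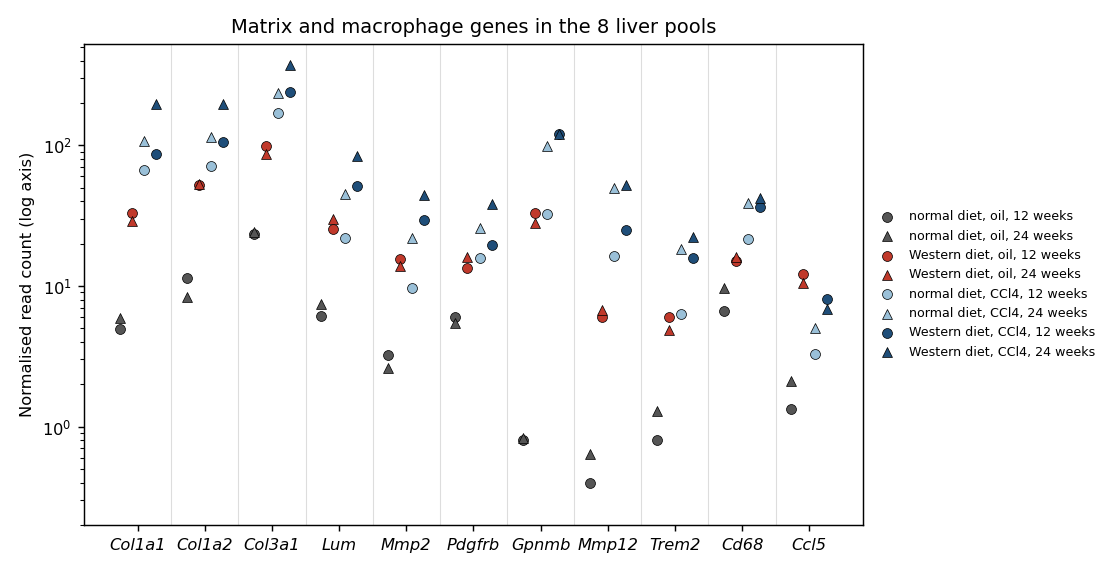
Normalised read counts (log axis) of 11 matrix, stellate and immune genes in the 8 liver pools, with circles for 12 and triangles for 24 weeks and 1 colour per combination of diet and treatment. The grey normal-diet oil points lie lowest for each gene, and the red Western-diet oil points of Ccl5 lie highest.

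Clock output genes differed sharply between the diets. The clock is a loop in which BMAL1 (Arntl) and CLOCK switch on the Per, Cry and Rev-erb genes through E-boxes, and PAR-bZIP factors such as DBP then act on D-boxes of further genes. Of 24 clock genes, 10 rose and none fell by limma, with a median change of 0.46. At an unadjusted p under 0.05, 12 were higher and 3 lower, and DESeq2 called 10 higher and 1 lower. Dbp (chromosome 7, 45705088 to 45710203 on the plus strand) read 1.46 and 2.10 on normal diet against 55.9 and 38.4 on Western diet. Its change of 4.10 ± 0.21 had the lowest p of all genes tested (limma, adjusted p = 0.000195), and the diets did not overlap at either duration. Tef, a second PAR-bZIP factor, read 47.8 and 48.0 against 143 and 111 (change 1.38 ± 0.13).

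The repressors and regulators of the loop followed. Per3 read 0.532 and 2.01 against 19.3 and 14.5 (change 3.05 ± 0.34), and Per1 read 11.8 and 17.3 against 33.1 and 31.4 (change 1.12 ± 0.16). Ciart, a repressor of CLOCK and BMAL1, rose by 2.30 ± 0.37 from 0.0887 and 0.595. Bhlhe41, which competes for E-boxes, read 0.0887 and 0.457 against 4.91 and 3.11, and its relative Bhlhe40 rose by 0.77 ± 0.11. The clock-driven protease Usp2 rose by 2.58 ± 0.33, the cell-cycle kinase Wee1 by 1.82 ± 0.32 and the Rev-erb gene Nr1d2 by 0.74 ± 0.13. The activators had lower readings on Western diet: Arntl read 33.5 and 30.4 against 17.3 and 23.6, and Clock read 88.6 and 69.3 against 62.3 and 55.9. Neither passed (limma, adjusted p = 0.117 and 0.230). Nfil3, a repressor at D-boxes, read 73.0 and 87.1 against 50.1 and 36.2 (limma, adjusted p = 0.0806). Nr1d1 read 89.1 and 76.8 against 116 and 71.3, so its diets overlapped.

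For these genes the normal-diet oil pools stood apart from the CCl4 pools as well. Dbp read 63.6 and 42.2 on normal diet with CCl4 and 62.4 and 50.1 on Western diet with CCl4, within the range of the Western-diet oil pools or above it. Arntl lay between 5.53 and 8.87 in the 4 CCl4 pools, below its values in all 4 oil pools. The labels do not give the hour at which livers were taken, and its part in the clock genes or in any other called gene was not tested.

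**Figure D3:**
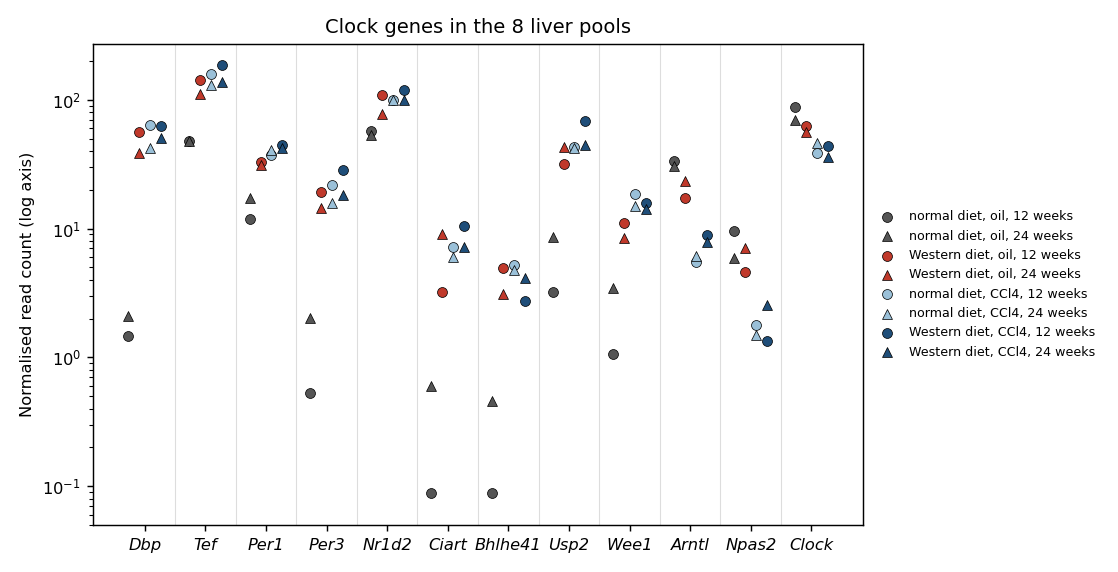
Normalised read counts (log axis) of 12 clock genes in the 8 liver pools, with circles for 12 and triangles for 24 weeks. Normal-diet oil pools (grey) lie lowest for Dbp, Tef, Per1, Per3, Nr1d2, Ciart, Bhlhe41, Usp2 and Wee1 and highest for Arntl and Clock.

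Promoter windows of the called clock genes were searched for the E-box and the D-box, motifs through which the loop is known to work, and 4 windows with a match are printed to show them. Windows run from 250 bases before to 50 bases after a RefSeq start on GRCm38.p6. Of the 10 called clock genes 8 had a window, giving 10 windows with alternative starts. The E-box CACGTG, which reads the same on both strands, lay in the windows of 4 genes, Tef, Bhlhe41, Per1 and Ciart, and in 7.15% of all 32851 windows of this length. The D-box, TTATGTAA or TTACGTAA on either strand, lay in that of Per3 and in 1.06% of all windows. Of the 10 windows, 5 held an E-box, 1 held a D-box and 4 held neither set of letters, which are those of Dbp, Usp2 and Nr1d2 and the second start of Per1. Capitals mark the matches, each sequence reads 5′ to 3′ in the direction of the gene, and only the first start is shown for Tef and Per1.
Tef, chr15:81802423-81802722, plus strand: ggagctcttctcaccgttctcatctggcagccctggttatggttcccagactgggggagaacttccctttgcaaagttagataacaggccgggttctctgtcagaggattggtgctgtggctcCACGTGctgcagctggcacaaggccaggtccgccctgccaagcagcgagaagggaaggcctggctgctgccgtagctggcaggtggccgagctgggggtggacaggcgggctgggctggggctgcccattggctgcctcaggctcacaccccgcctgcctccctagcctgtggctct
Per3, chr4:151044616-151044915, minus strand: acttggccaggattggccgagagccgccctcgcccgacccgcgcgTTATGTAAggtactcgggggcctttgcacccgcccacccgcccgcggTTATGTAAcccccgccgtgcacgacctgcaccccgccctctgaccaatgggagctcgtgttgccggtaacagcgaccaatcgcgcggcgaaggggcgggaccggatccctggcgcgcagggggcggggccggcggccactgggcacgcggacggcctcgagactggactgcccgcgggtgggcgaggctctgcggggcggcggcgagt
Bhlhe41, chr6:145865371-145865670, minus strand: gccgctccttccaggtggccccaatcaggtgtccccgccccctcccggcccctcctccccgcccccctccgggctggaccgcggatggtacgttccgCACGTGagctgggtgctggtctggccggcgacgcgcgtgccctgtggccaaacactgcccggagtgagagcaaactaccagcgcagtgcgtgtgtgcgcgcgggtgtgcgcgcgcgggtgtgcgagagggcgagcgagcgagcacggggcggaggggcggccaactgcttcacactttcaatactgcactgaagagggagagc
Per1, chr11:69098699-69098998, plus strand: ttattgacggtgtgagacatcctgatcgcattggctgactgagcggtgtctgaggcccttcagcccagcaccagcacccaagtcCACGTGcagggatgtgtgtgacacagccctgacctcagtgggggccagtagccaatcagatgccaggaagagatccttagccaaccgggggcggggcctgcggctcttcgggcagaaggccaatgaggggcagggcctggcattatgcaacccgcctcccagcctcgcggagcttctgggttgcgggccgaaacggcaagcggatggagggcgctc
The E-box of Tef began 127 bases upstream of the start, that of Bhlhe41 153 bases and that of Per1 166 bases. The D-boxes of Per3 began 205 and 158 bases upstream. A match is a description of these letters, and no binding was measured.

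Of 30 genes that are higher in male than in female liver, 10 were lower and none higher by limma, with a median change of -1.06 and 4 of the 30 differences above 0. DESeq2 called 12 lower and none higher. Elovl3, an elongase of long fatty acids (chromosome 19, 46131897 to 46135694 on the plus strand), read 850 and 1010 on normal diet against 123 and 113 on Western diet. The diets were far apart at both durations, and the change was -2.97 ± 0.24 (limma, adjusted p = 0.00149). Mup21, a major urinary protein, read 325 and 301 against 41.4 and 26.8 (change -3.19 ± 0.31), and Hsd3b5, a hydroxysteroid dehydrogenase, read 290 and 207 against 30.8 and 8.16 (change -3.85 ± 0.76). Susd4, a complement inhibitor, fell by 2.46 on the log2 scale, and Cyp7b1, an oxysterol hydroxylase, fell from 356 and 379 to 137 and 120. Gstp1, Mup20, Cyp2u1, Scara5 and Serpina4-ps1 completed the 10. Serpina1e read 11691 and 12653 against 2821 and 2427 and did not pass (limma, adjusted p = 0.0863). Major urinary proteins, Serpina1 genes and Cyp2c genes are near-identical families, so which copy the reads came from is uncertain.

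Female-biased genes split, 3 of 15 higher and 3 lower. Cyp2b9 read 0.133 and 0.640 against 16.5 and 9.49, a change of 3.31 ± 0.37 (limma, adjusted p = 0.00599), and the diets did not overlap. Abcd2, a peroxisomal transporter, rose by 1.10 ± 0.16, and Acot3 by 1.29 ± 0.27. Cyp17a1 fell by 1.09 on the log2 scale, Cyp2c40 by 1.76 and Cyp2c69 by 1.36. Growth hormone axis genes gave 0 calls among 18 by limma and by edgeR, 1 by DESeq2, and 3 higher and 1 lower at an unadjusted p under 0.05. Among cytochromes P450, 3 of 37 were higher and 4 lower. Cyp2a22 read 0.577 and 0.915 against 7.90 and 7.67 (change 2.34 ± 0.20), and Cyp2c67 read 257 and 250 against 71.4 and 78.2 (change -1.75 ± 0.12).

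Pericentral genes are those of hepatocytes around the central vein, where glutamine is made. Of 28 tested, 3 fell and none rose by limma, with a median change of 0.09. The list did not move 1 way, with 17 differences above 0 and 11 below. At an unadjusted p under 0.05, 4 were higher and 7 lower, and DESeq2 called 2 higher and 5 lower. Slc1a2, a glutamate transporter of that rim (chromosome 2, 102658659 to 102790784 on the plus strand), read 140 and 137 on normal diet against 30.2 and 42.4 on Western diet. Both Western-diet pools were below both normal-diet pools, a change of -1.92 ± 0.24 (limma, adjusted p = 0.00928). Glul, glutamine synthetase, read 866 and 809 against 387 and 474 (change -0.97 ± 0.20, limma, adjusted p = 0.0485), and Lhpp, a phosphatase, read 58.0 and 73.2 against 17.8 and 15.2 (change -1.92 ± 0.28). Oat, ornithine aminotransferase, read 1024 and 1187 against 217 and 307 and did not pass (limma, adjusted p = 0.0681). Periportal genes gave 0 calls among 24 by limma, edgeR and DESeq2, with 2 higher at an unadjusted p under 0.05.

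Lipid synthesis was read in separate lists for cholesterol and for fatty acids with triglycerides. Cholesterol synthesis gave 0 calls among 25 by limma and by edgeR and 1 by DESeq2. At an unadjusted p under 0.05, 1 was higher and 6 lower, against 10.8% and 6.74% of all genes. The list leaned lower, with 19 of the 25 differences below 0 and a median change of -0.24, against 0.02 for all genes. Insig1, the sterol sensor's anchor, read 507 and 510.5 against 370.4 and 383, and Sqle, squalene epoxidase, read 142 and 151 against 106 and 139. Among 27 genes of fatty acid and triglyceride synthesis 3 rose and none fell by limma. At an unadjusted p under 0.05, 5 were higher and 3 lower, and DESeq2 called 5 higher and 1 lower. Of the 27 differences, 12 were above 0 and 15 below. Elovl6, which extends palmitate, read 83.9 and 97.0 against 193 and 165 (change 0.98 ± 0.14), and Acaca, acetyl-CoA carboxylase, read 53 and 48.1 against 104 and 84.5 (change 0.88 ± 0.13). Scd2 rose by 1.01 ± 0.20. The desaturase Scd1 read 12830 and 12736 against 13157 and 10184, so its diets overlapped, and Fasn, fatty acid synthase, read 512 and 416 against 661 and 591 (limma, adjusted p = 0.302). Srebf1, the lipogenic transcription factor, read 271 and 251 against 328 and 276 and did not pass either.

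Of 18 lipid droplet genes, 1 was lower and none higher by limma. That gene was Fitm1, a membrane protein that helps droplets form, at 28.6 and 51.0 against 2.69 and 1.33 (change -3.74 ± 0.40, limma, adjusted p = 0.00435). Plin2, the main droplet coat protein of hepatocytes, read 570 and 504 against 463 and 493, Cidec read 1.91 and 4.76 against 2.52 and 1.85, and Plin4 read 4.70 and 8.14 against 2.52 and 4.38. None of these 3 passed. Of 28 genes for lipid uptake and lipoproteins, Apoa4 rose, from 91.2 and 119 to 414 and 349 (change 1.86 ± 0.22). Fabp5 and Fabp2, carriers of fatty acids, fell by 1.32 and 0.76 on the log2 scale. Cd36, a fatty acid receptor, read 49.5 and 66.7 against 71.6 and 84.9 (limma, adjusted p = 0.0973), and Apoa1, the main protein of high-density lipoprotein, read 10023 and 9637 against 5762 and 5255 (limma, adjusted p = 0.109).

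Fatty acid oxidation genes had 4 of 33 higher and none lower by limma, 12 higher and 1 lower at an unadjusted p. Cyp4a10, which hydroxylates fatty acids under PPAR-alpha, read 158 and 92.5 against 380 and 357 (change 1.60 ± 0.18). Cyp4a31 rose by 1.84 ± 0.25, and the thioesterases Acot2 and Acot3 by 1.16 ± 0.19 and 1.29 ± 0.27. Both pairs lie in families of near-identical copies. Cpt1a, the gate of mitochondrial oxidation, read 339 and 278 against 435 and 425, and Fgf21, a hormone of the same programme, read 2.35 and 0.640 against 2.31 and 0.816. Neither passed.

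Of 16 sterol efflux genes tested, 1 was higher and 1 lower by limma, and of 28 bile acid genes 2 were lower and none higher, Cyp8b1 and Cyp7b1. For bile acid genes edgeR called 1 lower and none higher, and DESeq2 called 2 higher and 2 lower. At an unadjusted p under 0.05 by limma, 3 of them were higher and 4 lower. Pltp, which moves phospholipid between lipoproteins, read 77.5 and 69.5 against 39.3 and 37.7 (change -0.91 ± 0.12), and Npc1, which exports cholesterol from lysosomes, rose by 0.58 ± 0.12. Cyp8b1, which decides how much cholic acid is made, read 410 and 473 against 232 and 120 (change -1.40 ± 0.23). Cyp7a1, the rate-limiting enzyme of bile acid synthesis, read 49.8 and 131 against 114 and 142 and overlapped between diets (limma, adjusted p = 0.496).

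Sugar genes split, with 2 of 37 higher and 2 lower. Pfkfb1, a control enzyme of glycolysis, read 26 and 42 against 12 and 17.2 and was among the lower ones. Gys2, liver glycogen synthase, read 131 and 109 against 244 and 208 (change 0.91 ± 0.10), and the glucose transporter Slc2a2 rose by 0.78 ± 0.11. For these 3 genes the diets did not overlap.

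Smaller groups held a few strong genes. Hamp2, a hepcidin-like peptide, read 22.9 and 11.3 against 131 and 87.9, a change of 2.66 ± 0.30 (limma, adjusted p = 0.00599). The acute-phase list had 2 of 26 higher, Hamp2 and Orm3, and 2 lower, Apcs and Fgl1. Eda2r, a death receptor among the p53 targets, read 0.266 and 0.366 against 6.79 and 7.08 (change 2.59 ± 0.25), and Phlda3 rose by 1.05 ± 0.19, so 2 of 16 targets passed. Genes of fetal liver and liver tumours had 3 of 22 higher, Golm1, Ly6d and Scd2, and Tff3 lower. Cell cycle genes gave 0 calls among 35 and heat shock genes 0 among 16 by limma, edgeR and DESeq2. At an unadjusted p under 0.05, 2 cell cycle genes were higher and 3 lower, and no heat shock gene passed. Lcn2, a marker of liver injury, read 4.13 and 12.6 against 3.97 and 13.6.

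**Figure D4:**
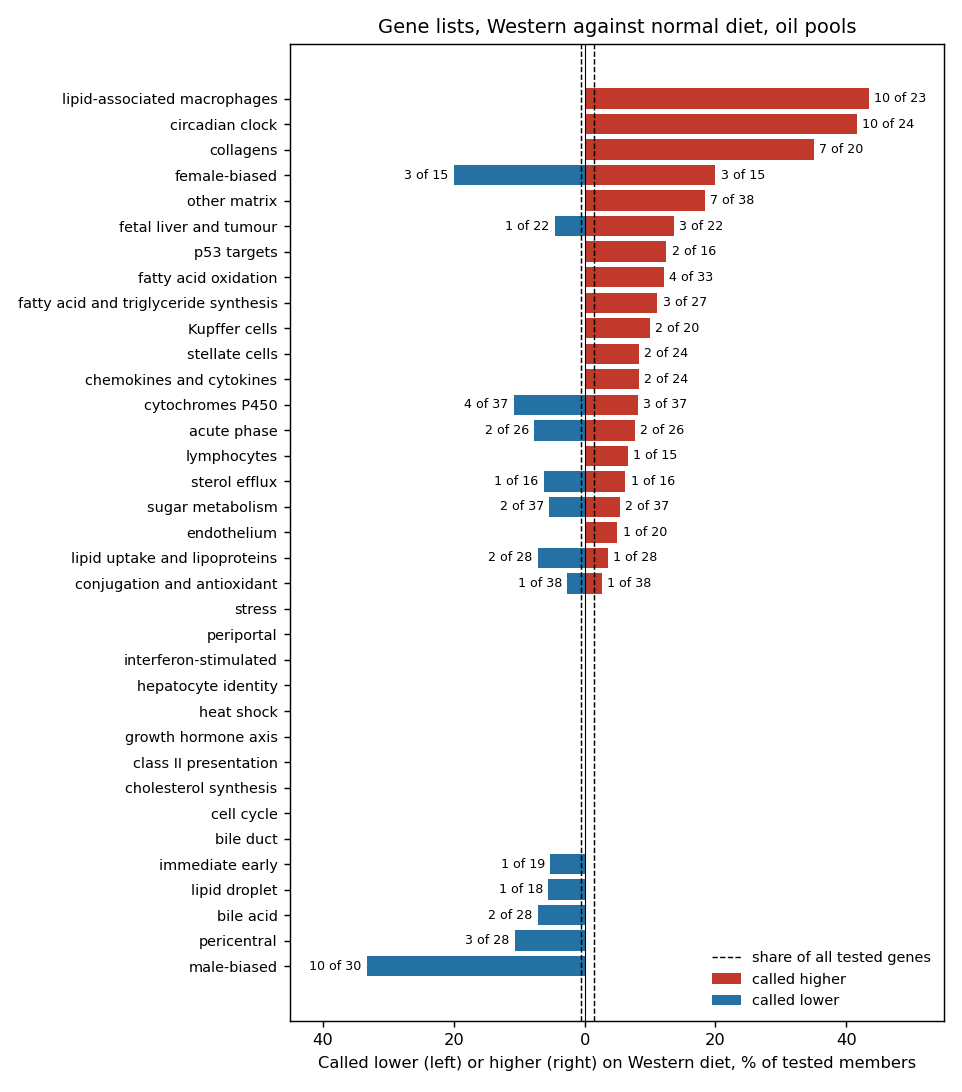
For each gene list with at least 5 tested members, the bar gives the percentage of members called higher (red, right) or lower (blue, left) on Western diet, with dashed lines at the shares of all tested genes, 1.45% and 0.546%. Lipid-associated macrophages (10 of 23), the clock (10 of 24) and collagens (7 of 20) reach furthest right, and male-biased genes (10 of 30) furthest left.

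Several strongly changed genes stood outside the main groups. Moxd1, a monooxygenase-like protein (chromosome 10, 24223517 to 24302790 on the plus strand), read 14.4 and 30.4 on normal diet with oil and 0 in both Western-diet oil pools and all 4 CCl4 pools. Tff3, a mucosal peptide, read 22.3 and 36.3 against 0.855 and 1.19 (change -3.87 ± 0.24). Enho, which encodes the metabolic peptide adropin, read 28.4 and 29.6 against 5.13 and 4.49 (change -2.37 ± 0.20), and Pitx3, a homeobox factor whose gene overlaps the end of Elovl3 on the other strand, read 11.4 and 10.1 against 1.07 and 0.853. The annotated overlap covers only the last bases of each gene, as Elovl3 ends at 46135694 and Pitx3 spans 46135685 to 46148326. Within it reads of the 2 genes cannot be told apart, since the counting is not stated to use strand. Sulf2, a heparan sulfatase, read 8.07 and 7.64 against 24.7 and 27.1 (change 1.60 ± 0.12). Rgs16, a brake on G-protein signalling, read 8.78 and 3.29 against 45.5 and 63.8. For each of these 6 genes both pools of one diet lay beyond both pools of the other, a description of genes that the same contrast chose.

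Most called genes set the normal-diet oil pools apart from every other liver pool, not the Western-diet oil pools. Of the 183 higher genes, 175 had both normal-diet oil pools below all 6 others, against 17.1% of all genes. Of the 69 lower genes, 47 had both above all 6 others, against 15% of all genes, and 16 had both Western-diet oil pools below all 6 others, against 3.17%. The oil contrast itself helped choose these genes, so the counts describe where the CCl4 pools lay. Col1a1 read 67.2 and 106 on normal diet with CCl4 and 86.0 and 196 on Western diet with CCl4, all above the Western-diet oil pools. Apoa4 read 3307 and 5345 with CCl4 on normal diet, far above its 414 and 349 on Western diet with oil.

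The same diets were then compared among the CCl4 pools, which share no library with the oil pools but share the estimate of spread. Of the 183 higher genes 138 had a difference above 0 there, against 51.1% of all genes, and of the 69 lower genes 55 had one below 0, against 48.9%. The medians were smaller, 0.26 with CCl4 against 1.09 with oil for the higher genes and -0.31 against -1.51 for the lower genes. Among the CCl4 pools 6 genes passed (0.0474%), 1 higher (0.00791%) and 5 lower (0.0395%), and 4 of these were also called with oil: Slc1a2, Glul, Lhpp and Elovl3. Slc1a2 read 185 and 125 on normal diet with CCl4 and 14.9 and 22.5 on Western diet with CCl4 (change -2.98 ± 0.24, limma, adjusted p = 0.00439). Glul read 1373 and 1185 against 238 and 369 (change -2.10 ± 0.20, limma, adjusted p = 0.0109). The 3 pericentral genes were lower on Western diet both with and without the toxin. Sqle and Cidea were called only with CCl4 in these fits.

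The difference of the 2 diet changes was itself tested, and 13 genes passed (0.103%), of which 11 were among the 252. Dbp differed by 3.99 ± 0.30 (limma, adjusted p = 0.00471), with high CCl4 pools on both diets, and Moxd1 by -4.46 ± 0.41, with all CCl4 pools at 0. Scara5 had opposite signs, with 10.2 and 20.9 against 2.31 and 4.93 in oil and 7.20 and 14.8 against 14.1 and 22.3 with CCl4. Gstm3, a glutathione transferase, rose in oil from 126 and 164 to 406 and 421 and read 455 and 501 against 290 and 407 with CCl4. For the other called genes a difference between the 2 settings was not shown.

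**Figure D5:**
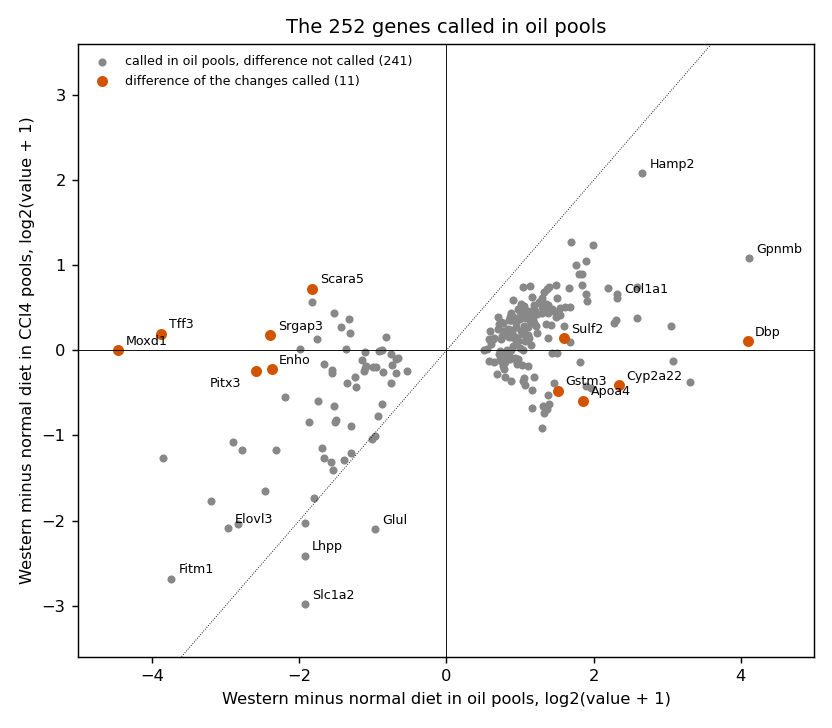
Each of the 252 genes called in the oil pools, with its diet change in the oil pools on the x axis and in the CCl4 pools on the y axis, as differences of log2(value + 1). Orange points are the 11 genes whose difference of changes passed the test, and most grey points lie nearer to 0 on the y axis than on the x axis.

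The durations differed for a few genes, which had 1 pool per diet at each duration and so no test. Among major urinary proteins, Mup14 read 443 against 205 at 12 weeks and 956 against 66.8 at 24 weeks, and Mup7 read 1962 against 609 and 2233 against 134. The acute-phase genes Saa1 and Saa2 were lower on Western diet mainly at 24 weeks, where the normal-diet pool was high: Saa1 read 45.3 against 32 at 12 weeks and 326 against 38 at 24 weeks. Acnat2, an acyltransferase, read 10.5 against 46.4 at 12 weeks and 39.6 against 40.9 at 24 weeks. Between 12 and 24 weeks 87 genes changed at least 2-fold within normal diet with oil and 40 within Western diet with oil.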

How the data were processed

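Per the labels' protocols, RNA was taken from flash-frozen liver with an RNeasy kit. Poly-A-selected RNA-seq libraries were made from 200 ng of RNA. The submitters' processing notes name STAR and mm10, without versions. How reads were counted and scaled, and on which annotation, was not given in the sources used here. Each deposited signal is a normalised read count of 1 gene, and dividing by 1 constant per library turned every value into whole reads (tolerance 0.01 reads), with implied scaling factors of 0.868 to 1.18. A value of 0 allows up to 3 reads, which covers counting error only.

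Values were taken as log2(value + 1) and fitted with limma 3.58.1 in R 4.3.3 (eBayes with trend, two-sided, 3 residual degrees of freedom). Same-numbered pools shared a duration, which the labels give. edgeR 4.0.16 and DESeq2 1.42.0 were run on recovered reads. Alternatives were another pseudocount, filters, scalings, no duration term, other sets of libraries and leaving out each pool. Coordinates are from GENCODE on GRCm38. Named genes were the 15 greatest rises and falls of well-expressed called genes, up to 6 called and 3 uncalled members of each list, genes called whichever pool was left out, 8 well-expressed genes each way with the greatest change between durations, and 19 followed genes. Acta2, Arntl, Bhlhe40, Capg, Cd68, Cd8a, Cd9, Ciart, Clec4f, Clock, Col27a1, Col4a5, Col5a1, Col6a3, Cpt1a, Hsd3b5, Insig1, Itga4, Itgal, Itgb2, Mup20, Nfil3, Nr1d2, Oat, Selplg, Sparc, Spi1, Syk, Timd4 and Wee1 lie outside this rule and were chosen after their values were seen. Results on 2 named genes are not reported here. Members, 38 lists and rules were chosen with earlier results of these data known.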

Additional observations from a re-analysis of the deposited data

Results flagged for a closer look

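The diet change in oil differed from that with CCl4 in 13 genes (limma, difference of the changes, adjusted p under 0.05 for each). It was higher in oil by 3.99 for Dbp, 2.75 for Cyp2a22, 2.45 for Apoa4, 2.0 for Gstm3, 1.46 for Sulf2 and 4.00 for Cidea. The last is a lipid droplet gene that was at or near 0 in every oil pool and lower by 4.06 on Western diet with CCl4. It was lower in oil by values of -4.46 for Moxd1, -4.07 for Tff3, -2.57 for Srgap3, -2.54 for Scara5, -2.34 for Pitx3, -2.15 for Enho and -1.67 for Sqle.

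Among genes whose mean level was at or above the median of all genes tested, the 8 each way with the greatest contrast between durations were taken, and in 8 of them the diet changes at 12 and 24 weeks had opposite signs, which was not tested. The change at 24 weeks minus that at 12 weeks was 2.93 for Ubb, 1.98 for Ndrg1, 1.49 for Igfbp1, 1.37 for Slc25a30, 1.35 for Sik1, 1.34 for Irf5, 1.28 for Slc25a25 and -1.52 for Hspb1. Genes below that level were not ranked and some had a greater contrast, such as Cxcl1, a neutrophil chemokine, with 1.23 at 12 weeks and -1.83 at 24 weeks, a difference of -3.05. Ubb, polyubiquitin, read 30.9 and 22.5 at 12 weeks on normal and Western diet and 2.56 and 19 at 24 weeks. The normal-diet oil pool of 24 weeks was the lowest of the 8 liver pools for this gene.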

How the results depend on the processing

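The count of 252 genes stayed within 1.5 times under a pseudocount of 0.1, median-ratio factors, a filter at 10 and edgeR. It was 134 with quantile normalization (62.7% higher, against 72.6%), 125 without trend, 4 with all 10 libraries, 1519 from the 4 oil pools alone (1 residual degree of freedom, all 252 included), 570 with DESeq2 and 0 with no filter (limma, 2442 at unadjusted p under 0.05). Without the replicate block for duration it was 121, all among the 252, and 6 and 11 for the CCl4 and difference contrasts. Deviations of same-duration pools correlated between 0.03 and 0.40. Leaving out 1 pool gave 17 to 390. The 6 genes with CCl4 became 0 with no filter (1181 unadjusted), 3 with the filter at 10, 1 without trend, 1 with all 10 libraries and 67 with DESeq2, and 2 to 117 with a pool left out. The 13 genes of the difference became 0 with no filter (1346 unadjusted), 6 with the filter at 10, 7 without trend, 0 with all 10 libraries (320 unadjusted) and 132 with DESeq2, and 0 to 79 with a pool left out. No direction reversed among the named called genes. The causes were not tested. With 2 pools per diet, precision is limited by their number.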
